A study of Mus musculus with 6 samples.

Results

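The MAF, BACH and NRF genes encode basic leucine zipper (bZIP) proteins, and 8 of them, Maf, Maff, Mafg, Mafk, Bach1, Bach2, Nfe2l1 and Nfe2l2, were examined for Ikaros peaks together with Crebrf, a regulator of another bZIP factor, as a set of 9 genes. Members were chosen by name, and their peaks were the rows that the authors' gene column gave to these names. They held 12 of 4111 peaks summed over 3 peak lists, which merged into 6 of 2526 regions. The gene set makes up 9 of 21883 protein-coding genes in the RefSeq table of the same build.

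Ikaros (gene Ikzf1), a DNA-binding protein with zinc fingers, was mapped by chromatin immunoprecipitation with sequencing (ChIP-seq) in mouse natural killer (NK) cells taken from spleen and expanded in culture with IL-15 at 50 ng/ml. The series has 3 Ikzf1 KO samples, in which Ikzf1 was deleted conditionally through NKp46, a receptor of NK cells, and 3 wild-type (WT) samples; chromatin of both was pulled down with the same anti-Ikzf1 antibody. One peak list per WT sample was analysed, KO libraries were not analysed here, and so no comparison between genotypes was made. The labels give no age or sex and do not say whether the samples came from separate animals, so agreement between lists may be technical. Peak lists hold no RNA levels, and the labelled cell type was therefore not checked by expression of its markers.

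Small MAF proteins (MAFF, MAFG and MAFK) carry a DNA-binding zipper but no activation domain, so what a dimer does depends on the partner. Paired with NRF1 or NRF2, the products of Nfe2l1 and Nfe2l2, they activate stress response genes through antioxidant response elements, and paired with BACH1 or BACH2 they repress from related sites. These elements contain or resemble the site of AP-1, the FOS and JUN dimers named in the series title. In lymphocytes BACH2 is known as a repressor that restrains effector differentiation, and c-MAF, the product of Maf, is an activator in T helper and myeloid cells. CREBRF is a regulator of the bZIP factor CREB3 and promotes its breakdown.

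Peaks numbered 685, 2084 and 1342 in WT replicates 1, 2 and 3. A peak's fold enrichment is the authors' ratio and was used only within its own list, with its percentile there (100 being the strongest peak). Read depth is unknown, since the lists hold no counts.

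Of the 9 genes, Maff and Crebrf were named for a peak in all WT lists, and Mafg and Bach2 in the lists of replicates 2 and 3. The other genes, Maf, Mafk, Bach1, Nfe2l1 and Nfe2l2, had no peak in any list. The number of genes with a peak was 2 in replicate 1 (22.2%, 95% Clopper-Pearson interval 2.81 to 60.0), against 2.71% of all protein-coding genes. It was 4 in replicate 2 (44.4%, interval 13.7 to 78.8), against 7.80% of all protein-coding genes, and the same 4 in replicate 3, against 5.52%. In 2 or more lists it was 4 of 9, against 4.47% of protein-coding genes, and in all lists 2 of 9 (22.2%), against 2.01%. In any list it was 4 of 9, against 9.55%. Without Crebrf, which belongs to none of the MAF, BACH and NRF families, the counts were 3 of 8 in 2 or more lists and 1 of 8, Maff, in all lists. With genes assigned by position, as the gene span a peak overlapped or else the nearest within 50 kb, members in 2 or more lists again numbered 4, against 4.81% of protein-coding genes, and in all lists 2, against 2.17%. Each member share stood above its background share, but every interval is wide and covers counting error over genes only. At a −log10 q minimum of 5, 0 members kept a peak in all lists. In 2 or more lists 1 gene, Mafg, kept one, at the start of the neighbouring gene Sirt7. No share of all protein-coding genes was taken at this minimum, so the loss has no background beside it. The genes were chosen with earlier results known, so no test was made of the difference between member and background shares.

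Among the small MAF genes, Maff (ENSMUSG00000042622) is the stress- and cytokine-inducible member. Its region lay on chromosome 15, 79347161 to 79348075 (mm10), within the gene, over the second of its 3 RefSeq starts. Fold enrichments were 4.90, 4.46 and 5.54 in WT replicates 1, 2 and 3. The −log10 q values were 3.99, 4.22 and 5.89. Percentiles of fold enrichment were 42.5, 40.1 and 64.6, so the region was close to the middle of each list. Peak widths differed more than the fold: 215 bases in replicate 1, but 915 and 724 bases in replicates 2 and 3, at width percentiles of 94.8 and 89.9. The narrow peak of replicate 1 lay wholly inside both of the others, so 215 bases were common to all lists. The peaks of replicates 2 and 3 covered the second start, at position 79347520, and that of replicate 1 ended 34 bases before it. The starts on either side of it were covered by no peak.

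The sequence at the second Maff start is shown because the stretch common to all lists, 79347272 to 79347486, falls inside it. It is the RefSeq promoter window of GRCm38.p6, the build also called mm10, chr15:79347270-79347569, plus strand, 250 bases before the start and 50 after. Capitals mark, in order, a run shared with Crebrf, overlapping TGACGT matches of both strands, and GGGAA.
Maff: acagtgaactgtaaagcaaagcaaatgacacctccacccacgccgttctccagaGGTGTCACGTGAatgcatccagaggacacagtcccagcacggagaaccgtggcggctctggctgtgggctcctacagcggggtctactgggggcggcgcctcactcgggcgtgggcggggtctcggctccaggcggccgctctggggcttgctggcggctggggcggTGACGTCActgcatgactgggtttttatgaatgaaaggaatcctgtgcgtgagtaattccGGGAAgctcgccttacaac

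Maff had another peak in replicate 2 only, on chromosome 15, 79357013 to 79357226, 1.85 kb before the end of the gene, with a fold enrichment of 4.14 at percentile 26.7. A further peak of replicate 2, named for Pla2g6, lay outside the gene, 11.0 kb before it, with a fold enrichment of 5.63 at percentile 74.6. Neither had a partner in the other lists.

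Crebrf (ENSMUSG00000048249) had its region at the start of the gene, on chromosome 17, 26715326 to 26715660. Fold enrichments were 4.65, 7.84 and 5.21 in WT replicates 1, 2 and 3. The −log10 q values were 3.72, 14.2 and 4.63. Replicate 2 stood apart: there the peak was the strongest of the 6 member peaks, at percentile 91.8, against 32.3 in replicate 1 and 56.3 in replicate 3. The midpoints of the peaks lay 118, 185 and 161 bases upstream of the RefSeq start at position 26715650. The peak of replicate 1 covered that start, whereas those of replicates 2 and 3 ended 45 and 44 bases before it. The bases common to all lists numbered 201. With a midpoint range of 67 bases, the Crebrf peaks were placed more closely than the Maff peaks, at 239 bases; the median over 1084 regions in 2 or more lists was 43.5 bases.

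The Crebrf promoter window, chr17:26715400-26715699, plus strand of GRCm38.p6 from RefSeq, is shown because the common stretch, 26715405 to 26715605, lies inside it. Capitals mark, in order, GGGAA read on the other strand, the run shared with Maff, and GGGAA on the strand shown.
Crebrf: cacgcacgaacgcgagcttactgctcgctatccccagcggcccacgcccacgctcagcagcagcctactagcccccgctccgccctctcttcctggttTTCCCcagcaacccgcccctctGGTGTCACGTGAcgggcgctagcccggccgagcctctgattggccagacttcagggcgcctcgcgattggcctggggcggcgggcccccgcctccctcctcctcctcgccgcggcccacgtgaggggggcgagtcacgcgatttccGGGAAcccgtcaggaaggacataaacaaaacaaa

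Mafg (ENSMUSG00000051510), the small MAF gene known for broad expression, was named for a region that lay nearer to another gene's start. The region was on chromosome 11, 120624958 to 120625198, with fold enrichments of 6.26 and 5.69 in WT replicates 2 and 3. The −log10 q values were 8.32 and 5.55, and percentiles of fold enrichment were 83.6 and 67.9. Replicate 1 had no peak there, and its nearest peak, at P4hb, was 51.8 kb from Mafg. The peaks reached 82 and 71 bases into the 3′ end of Mafg. Sirt7, which encodes a nuclear deacetylase, follows on the same strand, with its start 103 bases beyond the end of Mafg. Peak midpoints lay 72.5 and 58.5 bases upstream of the Sirt7 start, but 8.46 and 8.47 kb downstream of the Mafg start. The authors' column named both genes for these peaks. No peak of any list overlapped the promoter window of Mafg itself.

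The stretch is shown from the base after the end of Mafg to the end of the bases common to replicates 2 and 3, in the direction of both genes, because it holds the start of Sirt7. It is chr11:120624975-120625116, minus strand of GRCm38.p6, from the RefSeq window of Sirt7. Capitals mark TGGGAA and a match of TGACNNNGC on the other strand.
Mafg and Sirt7: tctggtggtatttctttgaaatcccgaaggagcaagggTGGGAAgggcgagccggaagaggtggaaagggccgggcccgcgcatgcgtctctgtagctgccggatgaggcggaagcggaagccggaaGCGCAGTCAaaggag

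Bach2 (ENSMUSG00000040270), the longest of the genes at 348 kb, had a region on chromosome 4, 32238568 to 32239347, and a peak of replicate 2 alone at 32250487 to 32251195. The first had fold enrichments of 4.09 and 4.02 in WT replicates 2 and 3, at percentiles of 24.9 and 14.8, and −log10 q values of 2.55 and 1.86. The second had 3.98 at percentile 20.7. All 3 Bach2 peaks were therefore among the weaker peaks of their lists, and all were wide, at 780, 532 and 709 bases, or width percentiles of 91.2, 82.1 and 88.8. The region lay 155 bases inside the first base of the gene span in replicate 2 and 295 bases in replicate 3, and the second peak lay 12.1 kb inside. The RefSeq entry of Bach2 includes predicted transcripts, and its 1 start in the promoter table, at 32417435, was 178 kb farther along the gene and had no peak. Of all protein-coding genes, 98.0% are shorter than Bach2, and whether its length bears on its peaks was not tested. Replicate 1 had no peak within 662 kb of the gene.

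**Figure D1:**
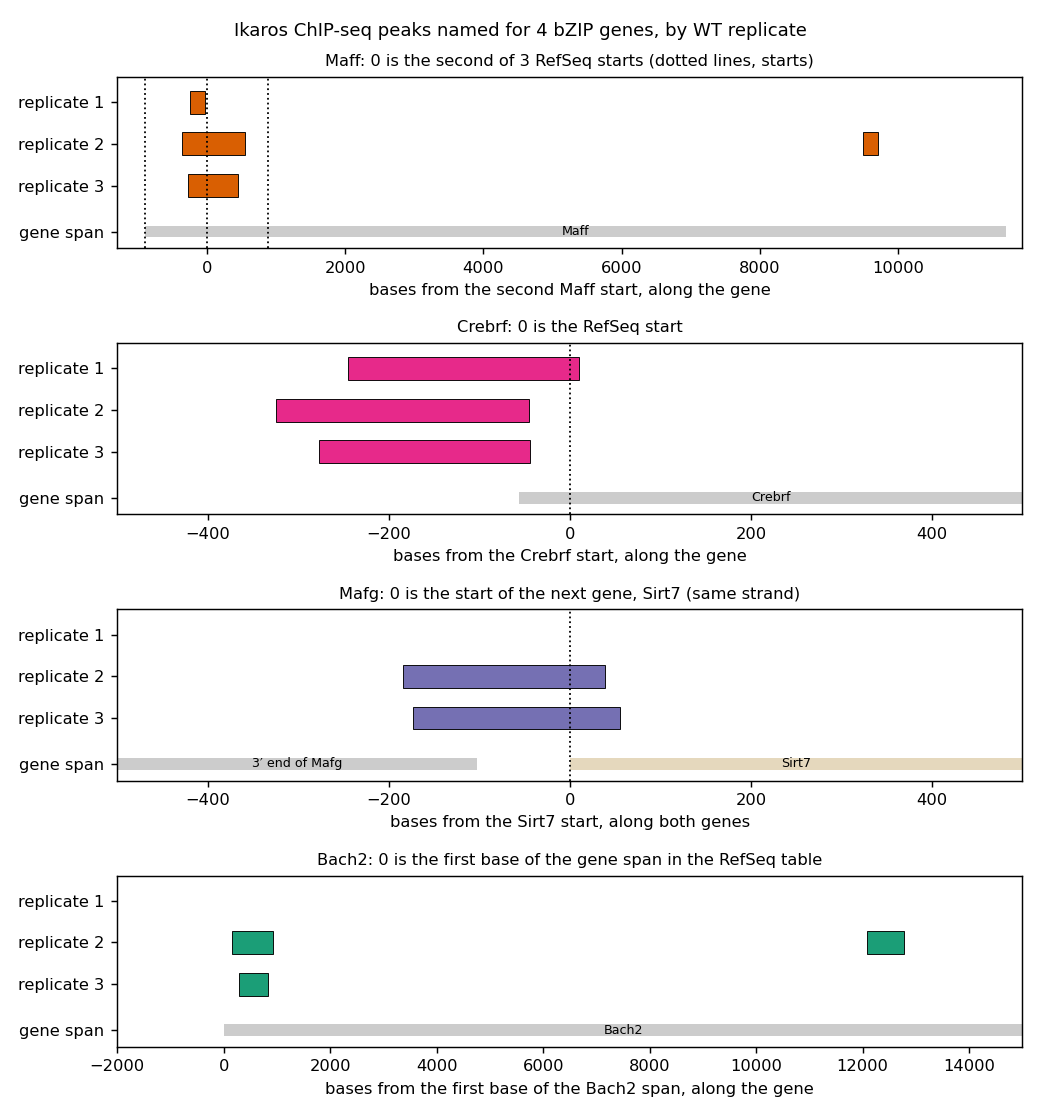
Positions of the peaks named for Maff, Crebrf, Mafg and Bach2 in WT replicates 1, 2 and 3 (coloured bars), in bases along each gene from the start given in the panel title; grey and tan bars are gene spans and dotted lines RefSeq starts. Crebrf peaks lie mostly before its start, whereas Mafg peaks lie across the start of Sirt7, and replicate 1 has peaks at Maff and Crebrf only.

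The order of the genes by fold enrichment differed between lists. The highest member peak was that of Maff in replicate 1 (4.90), Crebrf in replicate 2 (7.84) and Mafg in replicate 3 (5.69). Bach2 had the lowest in both lists that held it. Median percentiles of the member peaks were 37.4, 33.4 and 60.4 in WT replicates 1, 2 and 3, from 2, 6 and 4 peaks, beside about 50 over all peaks by construction. Median fold enrichments were 4.78, 4.30 and 5.37 for member peaks and 5.10, 4.73 and 4.99 for all peaks. The medians of the member peaks thus lay below the middle of the list in replicates 1 and 2 and above it in replicate 3. Single peaks ranged from percentile 20.7 (Bach2) to 91.8 (Crebrf) in replicate 2, and from 14.8 (Bach2) to 67.9 (Mafg) in replicate 3.

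**Figure D2:**
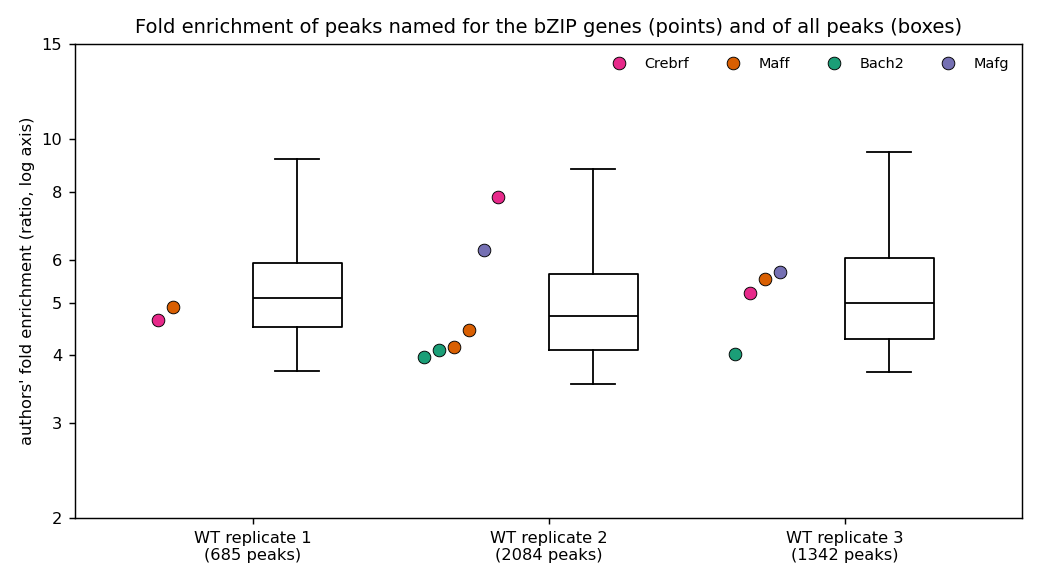
Fold enrichment (authors' ratio, log axis) of each peak named for a member, Crebrf included (points, coloured by gene), beside all peaks of the same WT list (boxes). Boxes show quartiles and median, and whiskers the percentiles 5 and 95. The Crebrf peak of replicate 2, at 7.84, is the highest member peak, and the Bach2 peaks are the lowest in replicates 2 and 3.

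With strand known from the promoter table, midpoints could be set against gene starts. Midpoints within 1 kb of any RefSeq start were found for 2 of 2 member peaks in replicate 1, 3 of 6 in replicate 2 and 3 of 4 in replicate 3. Over all peaks with a start table for their chromosome the shares were 51.6%, 45.6% and 54.5%. For Maff and Crebrf that start was the gene's own, and for Mafg it was that of Sirt7. By a peak within 1 kb of an own start, a measure added after the data were seen, 2 of the 8 genes with a start in the table, Maff and Crebrf, were reached in 2 or more lists, against 3.35% of 17491 protein-coding genes with a start, and the same 2 in all lists, against 1.53%. Bach2 was judged by its 1 start in the table, at 32417435. Its region began 155 and 295 bases inside the gene span in replicates 2 and 3, but the first base of that span is not a start in the table.

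Letters of known binding sites were searched on both strands in promoter windows, 300 bases each. TGGGAA and its inner part GGGAA are the core of the Ikaros site, TGANTCA is the AP-1 site, TGACNNNGC the core of the antioxidant response element, and TGACGT the core of the CREB and ATF site; each TGGGAA match is also a GGGAA match. The 14 member windows came from 8 genes (all but Maf). Of these windows, 5 were of Nfe2l1, some overlapping one another, and 3 of Maff, so counts of windows are not counts of genes. TGGGAA was in 1 member window, that of Mafg, against 25.6% of 32817 windows. GGGAA was in 8 member windows, against 62.7% of all. TGACNNNGC was in 4 and TGACGT in 3, against 12.4% and 7.51% of all windows, and TGANTCA was in 0, against 7.81%. TGACNNNGC stood at Nfe2l2, Mafk, Mafg and the first Maff start, and TGACGT at Mafg, Nfe2l1 and the second Maff start.

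In the bases common to all lists, Crebrf held GGGAA, on the other strand, beginning 152 bases upstream of its start, and Maff held none of the 5 searched motifs. The Maff pair of overlapping TGACGT matches, which together read TGACGTCA, began 29 bases upstream of the second start and was covered by the peaks of replicates 2 and 3. The TGGGAA upstream of Sirt7, 64 bases from its start, was covered by both Mafg peaks. Over the 310 windows under a region in all lists, TGGGAA was in 26.1% and GGGAA in 69.4%, beside 25.6% and 62.7% of all windows; GC content differed as well, at a median of 66.5% and 52.7%. Windows at the second Maff start and at Crebrf had 61.3% and 68.0% GC.

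The longest run of letters common to the shared stretches of Maff and Crebrf was GGTGTCACGTGA, which contains CACGTG, the E-box letters. It was looked for after the sequences had been seen. It began 196 bases upstream of the second Maff start and 130 bases upstream of the Crebrf start, within every peak of both genes there. These 12 letters were in 9 of 32817 promoter windows (0.0274%). Of the 9, 2 were the Maff and Crebrf windows from which the run was taken, so the share is no separate measure of its rarity. CACGTG alone was in 7.15% of all windows and 12.3% of those under a region in all lists. A run of this length was not particular to the pair. Over whole windows, 4 of 78 pairs of member windows from different genes shared a run of 12 letters, the longest found, and the median was 9. Those pairs were Maff with Crebrf itself, Maff with Mafk, Bach1 with Mafk, and Nfe2l1 with Nfe2l2.

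The 5 genes with no peak differed in how far away the nearest was. For Nfe2l2, which encodes NRF2, a region in all lists lay 58.6 kb from the gene on chromosome 2, named for the noncoding gene Gm13657. Its fold enrichments were 5.32, 5.41 and 4.75 in WT replicates 1, 2 and 3. For Mafk, the other small MAF gene, the nearest peak was 539 kb away in each list, named for Get4. For Bach1, the haem-regulated repressor, it was 2172 kb away in replicates 1 and 2, a peak named for Tiam1, and 244 kb in replicate 3. For Nfe2l1 it was 1508, 312 and 312 kb away, and for Maf 3826, 513 and 3717 kb. Medians over protein-coding genes on chromosomes with a peak were 858, 254 and 405 kb in WT replicates 1, 2 and 3, from 21627, 21883 and 21883 genes. Mafk was thus nearer to a peak than the median gene in replicate 1 only, and Maf in none. Peak numbers on either side of each of the 9 genes ran on without a gap in every list, so no numbered peak was dropped from the lists at these genes. Signal too weak to be called a peak cannot be seen in the lists.

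**Figure D3:**
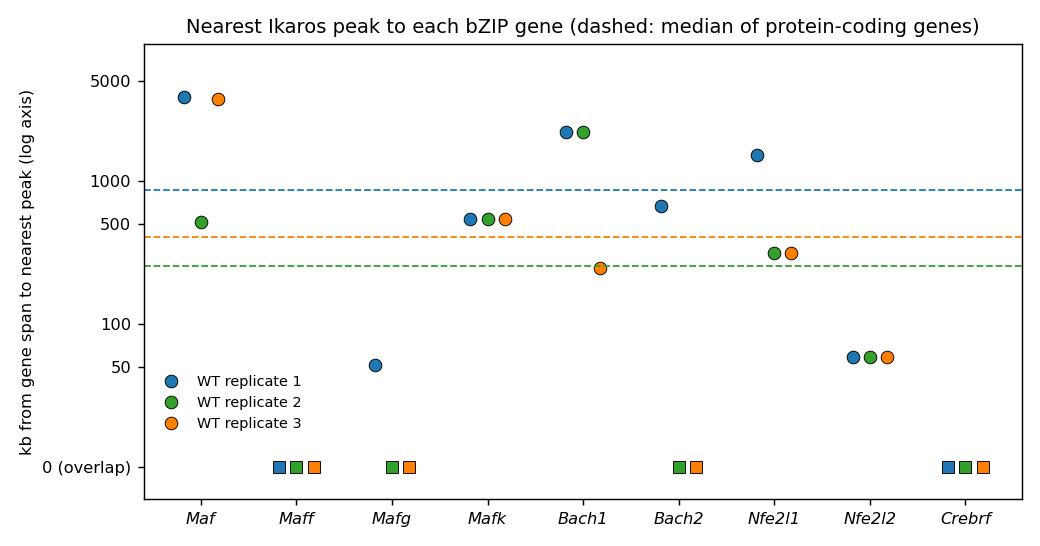
Distance in kb (log axis) from each of the 9 genes to the nearest peak in WT replicates 1, 2 and 3 (circles; squares mark genes that a peak overlaps), with dashed lines at the median of protein-coding genes on chromosomes with a peak, 858, 254 and 405 kb. Maff and Crebrf are overlapped in all lists, and Nfe2l2 has a peak at 58.6 kb in each.

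Genes of the same pathways were counted in the same way. Nfe2, Nfe2l3, Mafa and Nrl, relatives of the members within the CNC and MAF families, had no peak in any list. Of all protein-coding genes, only 9.55% were named in any list. Among regulators of NRF2 and NRF1, 1 of 20 was named in 2 or more lists (5.00%, interval 0.127 to 24.9), against 4.47% of all protein-coding genes. That gene was Dpp9, a peptidase whose relation to KEAP1 affects NRF2, with fold enrichments of 4.88 in both replicates 2 and 3. Keap1 and Cul3, the adaptor and scaffold of the ligase that marks NRF2 for breakdown, had none in any list.

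Of NRF2 and BACH1 target genes, 2 of 26 were named in 2 or more lists (7.69%, interval 0.946 to 25.1), against 4.47% of all protein-coding genes. Gclc, the catalytic subunit of glutathione synthesis, had 5.23 and 5.50 in replicates 2 and 3 within the gene. Blvrb, a biliverdin reductase of haem breakdown, had 4.54 and 4.40 in replicates 1 and 2 at its start. Hmox1 and Nqo1, the usual markers of BACH1 and NRF2 activity, had no peak. Of proteasome genes, which NRF1 activates, 1 of 31 was named in 2 or more lists (3.23%, interval 0.0816 to 16.7), against the same 4.47%. It was Psmb3, with 6.78 and 4.71 in replicates 2 and 3 just upstream of its start. None of the genes in these 3 lists was named in all WT lists, against 2.01% of all protein-coding genes. Assigned by position, Psma3 and Psmb3 were in 2 or more lists and 0 proteasome genes in all lists, against 4.81% and 2.17%. By distance to a start, 1 of 25 proteasome genes with a start, Psma7, had a peak within 1 kb in all lists, against 1.53% of protein-coding genes with a start. The authors' column named Psma7 in none.

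Of 40 CREB, ATF, CEBP, FOS, JUN and other bZIP genes, 3 were named in 2 or more lists (7.50%, interval 1.57 to 20.4), against 4.47% of all protein-coding genes. They were Creb1, with 3.88 and 4.04 in replicates 1 and 2, Fos, with 5.07 and 5.68 in replicates 2 and 3, and Junb, with 3.98, 4.82 and 4.87 in replicates 1, 2 and 3. The Fos peaks lay 8.84 and 8.73 kb from the gene. For the 14 FOS, JUN, BATF and ATF genes of AP-1 alone the count was 2 (14.3%, interval 1.78 to 42.8), against the same 4.47%. Assigned by position, AP-1 genes numbered 3 in 2 or more lists (21.4%), against 4.81% of protein-coding genes. In all lists they numbered 2 by position, Junb and Atf2, against 2.17%. By list, AP-1 genes with a peak numbered 1 of 14 in replicate 1 (7.14%), against 2.71% of all protein-coding genes. In replicate 2 they numbered 6 (42.9%), with Batf, Batf3, Fosl2 and Jund beside Fos and Junb, against 7.80%, and in replicate 3 they numbered 2 (14.3%), against 5.52%. The AP-1 share was thus close to the 44.4% of the 9 members, Crebrf included, in replicate 2, and lower than the members' share in replicates 1 and 3. Without Crebrf, members with a peak numbered 1, 3 and 3 of 8 in replicates 1, 2 and 3. Of 32 of these bZIP genes with a start in the table, 1, Atf2, had a peak within 1 kb of its start in all lists, against 1.53% of protein-coding genes with a start. The authors' column named Atf2 in none. The share for the 9 members in 2 or more lists, 44.4%, had an interval (13.7 to 78.8) that overlaps each of these. Overlap of intervals does not show that shares are alike, and the members were not a random sample of genes. The differences between lists were not tested.

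**Figure D4:**
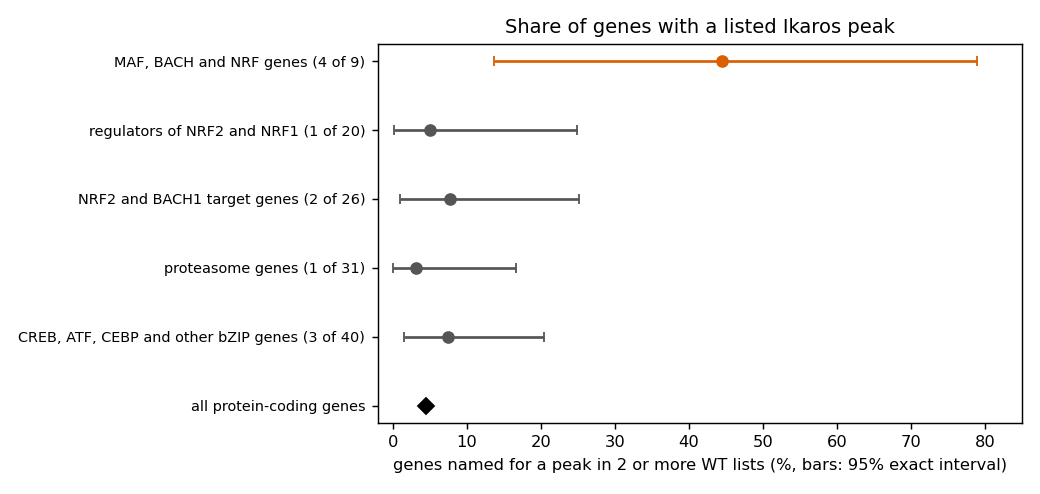
Percentage of genes named for a peak in 2 or more WT lists. Shown are the 9 members, Crebrf included (orange), 4 related gene lists (grey) and all protein-coding genes (diamond, 4.47%). Bars are exact 95% intervals of counting error. The members are at 44.4%, with the widest interval, and number 3 of 8 without Crebrf. The 4 related lists shown lie between 3.23% and 7.69%.

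Of the 2 member regions in all lists, Crebrf had the higher mean percentile of fold enrichment, 60.1, against 49.1 at Maff, and other regions were ranked by the summed difference of their 3 percentiles from it. Of 422 regions in all lists named for a protein-coding gene, the closest was that named for Mrpl48 and Rab6a, with percentiles of 34.2, 89.2 and 57.6 and a summed difference of 5.93. Leprot (10.5), Irf2 (13.7), Atp6v1c1 (15.0) and Fam227b (18.4) followed. Likeness over 3 lists describes rank only.

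Of 7 NK cell genes, 1, Klrb1c, was named in 2 or more lists, against 4.47% of all protein-coding genes, and 2, Klrb1c and Gzmb, in any list, against 9.55%. Of 6 T and B cell genes, 0 were named in any list. A peak does not measure expression.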

How the data were processed

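There were 3 peak lists, 1 for each WT library, and peak names in each carry that library's label; the one numbered 4 is WT replicate 3, by the number in its description. Tools named in the submitters' processing notes are MACS2, SAMtools, Picard, Subread and edgeR 3.20.0, with the build mm10; the notes give them no roles. The control library and q threshold are not given in the sources used here. Values deposited for a peak are, per the file headers, its fold enrichment as a linear ratio, the −log10 of its p-value and q-value, a score, and a gene name with the distance to it. In 100% of peaks the score of the authors equals 10 times the −log10 q, cut to a whole number.

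Rows were reduced to 1 per peak (800, 2414 and 1595 rows in WT replicates 1, 2 and 3), and peaks sharing at least 1 base were merged. Peak numbers not in the lists were 41, 50 and 42. Gene spans and promoter windows were RefSeq's for GRCm38.p6; 2082 of 2145 protein-coding names in the lists matched (97.1%). Peaks on a chromosome with no promoter window were left out of distances to starts. A related gene is not reported here, and its list was left out of the plot of shares. Exons, introns and UTRs were not assigned, and proteins were not compared. Percentiles are shares of a list's peaks with a value at or below. Scripts ran in Python 3.11.15 with pandas 2.3.3, SciPy 1.17.1 for intervals, NumPy 2.4.6 and, for plots, matplotlib 3.10.9; merging, counting and motif matching were tested on simulated data. All 9 members, every related gene named in 2 or more lists, and the 5 closest regions were to be named; the other genes named were chosen after their values were seen. The members and gene lists were chosen with earlier results of these data known. No significance test was made, since only WT lists were analysed.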

Additional observations from a re-analysis of the deposited data

How the results depend on the processing

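No paired analysis was possible because only WT lists entered the results, so no groups were compared. Depth is unknown, so a site missing from the shortest list, that of replicate 1, cannot be told from an unbound one. The alternatives by own start and by single gene name were chosen after seeing the data, and the cause of each change was not tested beyond the fewer peaks that stricter rules leave. At a −log10 q of 5 or more, 0 of the 9 genes had a peak in all lists and 1, Mafg, in 2 or more; the counts were 0, 2 and 2 in replicates 1, 2 and 3, regions numbered 0 and 1, and related genes in 2 or more lists fell to 1, against 7. With equal list lengths (685 peaks), 1 gene was in all lists, 3 were in 2 or more, and 2 were in the list of replicate 2. No share of all protein-coding genes was taken at the −log10 q of 5 or at equal lengths, so these counts have no background beside them. By a peak within 1 kb of an own start, 2 genes were in 2 or more lists, 2 in replicate 2 and 2 in replicate 3. With midpoints within 200 bases, 1 region was in all lists. Leaving out 1 replicate gave 2 to 4 genes in all lists and 2 to 4 in 2 lists, 2 to 4 regions on both counts, and 1 to 5 related genes. The higher member counts came without replicate 1 and the lower ones without replicate 2 or 3, and related genes numbered 1 without replicate 2 and 3 without replicate 3; Mafg and Bach2 rested on replicates 2 and 3 together. Ranked by −log10 p, the single-list peaks of Bach2 and Maff were at percentiles 17.6 and 45.3, and the highest member was Maff in 2 lists and Mafg in 0. Gene assignment by position, the 10 kb limit and the 50% overlap left the member counts unchanged. Members in 2 or more lists fell from 4 to 3 at a −log10 q of 2 or more, which dropped Bach2. They also fell to 3 with peaks of a single gene name, which dropped Mafg. Under all of these settings every member count stayed within 1.5 times.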
